A study of Mus musculus with 72 samples.

Results

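Mast cells and eosinophils are rare granulocytes, and 8 genes that mark them were followed in tumor-bearing mice, in the tumor itself, in the spleen and in the lymph nodes that drain the tumor. The genes, chosen by name from the 16835 listed, are PRG2, EPX, TPSAB1, CPA3, MS4A2, FCER1A, HDC and KIT, and all 8 are in the deposited table. They were chosen with earlier results of these libraries known, namely PRG2 in the PD1 and TS comparisons of the spleen and TPSAB1 against tumor volume, so for those 3 comparisons no p-value of any of the 8 is given, and a count of members past a threshold stands there only beside the share of all genes, with nothing read from it. Polyadenylated RNA was sequenced from BALB/c mice bearing CT26, a mouse colon carcinoma line. Every mouse carried the tumor, so no tumor-free tissue was available for comparison. The control arm was Isotype, and the 5 treated arms were TS/PD1/CYTO, TS/CYTO, CYTO, PD1/CYTO and PD1, so TS was never given without CYTO. The labels do not spell out CYTO or TS, and give neither doses nor the age of the animals. Each arm gave 3 tumors, 3 spleens and 3 nodes at study day 23 and 3 nodes at day 16, or 72 libraries in 24 groups, each library from a separate mouse within its group. Levels are log2(TPM + 1), where TPM is transcripts per 1000000, and 0.01 is the lowest deposited value, called the floor here.

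Mast cells mature in tissues from KIT-bearing progenitors under stem cell factor and store histamine, proteases and heparin-type proteoglycans in granules. The receptor for IgE on their surface, built from FCER1A, MS4A2 and FCER1G, triggers release of those granules when antigen links bound IgE. Basophils carry the same receptor and also make histamine, while eosinophils leave the bone marrow under interleukin 5, respond to the eotaxins through CCR3 and store PRG2 (major basic protein) and EPX (eosinophil peroxidase). Of the other members, TPSAB1 encodes a mast cell tryptase, CPA3 a carboxypeptidase of mast cell granules, HDC the enzyme that makes histamine from histidine, and KIT the stem cell factor receptor. Neutrophils and other myeloid cells can also express HDC, and KIT is found on progenitors and other cells, so neither marks mast cells alone.

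By GENCODE M21 on mm10 all 8 are protein-coding genes. Hdc (chr2:126593667-126619299, minus strand) and Prg2 (chr2:84980461-84983632, plus strand) share chromosome 2, Tpsab1 lies at chr17:25343245-25345562 on the minus strand, and its paralog Tpsb2 lies at chr17:25366305-25369098 on the plus strand. Because these tryptase genes are similar, reads could have been split between them by the authors' estimation, and the level of either alone is uncertain. Cpa3 is at chr3:20215620-20242181, Fcer1a at chr1:173221284-173227214, Ms4a2 at chr19:11615523-11623719, Epx at chr11:87864000-87875536 and Kit at chr5:75574916-75656722.

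The promoters of CPA3, FCER1A and HDC are shown because these genes lay lower together in the larger tumors, as described further on. Each run is 300 bases of GRCm38.p6 from RefSeq, from 250 before to 50 after the RefSeq transcription start, 5′ to 3′ on the gene's own strand. Capitals mark matches, on either strand, to AGATAA or TGATAA, letters recognised by GATA factors, of which GATA2 acts in mast cell development.
Cpa3, chr3:20242132-20242431, minus strand: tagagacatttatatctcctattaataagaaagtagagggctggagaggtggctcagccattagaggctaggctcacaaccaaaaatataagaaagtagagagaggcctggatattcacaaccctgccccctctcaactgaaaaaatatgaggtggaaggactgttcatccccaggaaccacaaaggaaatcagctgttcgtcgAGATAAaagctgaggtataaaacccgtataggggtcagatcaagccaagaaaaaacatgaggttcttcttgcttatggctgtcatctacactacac
Fcer1a, chr1:173227180-173227479, minus strand: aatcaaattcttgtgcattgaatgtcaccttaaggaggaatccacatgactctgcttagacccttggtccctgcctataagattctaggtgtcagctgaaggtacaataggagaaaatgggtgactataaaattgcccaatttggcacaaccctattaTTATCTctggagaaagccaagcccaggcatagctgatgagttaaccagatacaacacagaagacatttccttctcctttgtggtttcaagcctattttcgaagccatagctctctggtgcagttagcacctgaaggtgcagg
Hdc, chr2:126618629-126618928, minus strand: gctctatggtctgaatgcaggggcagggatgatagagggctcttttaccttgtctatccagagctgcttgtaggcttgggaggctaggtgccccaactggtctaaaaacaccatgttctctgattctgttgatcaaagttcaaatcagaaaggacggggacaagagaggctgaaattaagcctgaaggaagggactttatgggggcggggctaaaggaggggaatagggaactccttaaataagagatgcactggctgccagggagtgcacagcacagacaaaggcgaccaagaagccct
The CPA3 window held AGATAA on the gene's strand, from 46 to 41 bases before the start, and the FCER1A window held it on the other strand. The HDC window held neither spelling, which says only that these letters are not in this window. Of all 32851 windows of this length in the table, 18.6% held at least 1 of the 2 spellings, 11.2% AGATAA and 9.05% TGATAA. Windows were found for 6 of the 8 members, and MS4A2 was the third with a match. These matches are descriptions of sequence and were not tested for binding.

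Most libraries looked like their labelled tissue, but 3 day 16 nodes did not, and the tests that use day 16 nodes are given with and without them. Over 11238 genes, the node labelled PD1/CYTO 22 (the arm and mouse number) correlated with the median of the tumors at 0.973 and of the nodes at 0.737. The node labelled TS/PD1/CYTO 34 held 15300 TPM of summed skeletal muscle markers, against at most 10.3 in any of the 15 other day 16 nodes, and the node labelled PD1 16 held 18700 TPM of adipocyte markers, against at most 5390 in those 15. B cell markers summed to 0.292 to 75.9 TPM in these 3 and to 880 TPM or more in the other 15. The read depth behind the values is unknown, and genes not listed took 40.4 to 59.1% of TPM in spleens against 13.5 to 17.8% in tumors. In bulk tissue, fewer cells of a type and less RNA per cell cannot be told apart.

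The eosinophil granule genes were found in spleens and were at the floor in every tumor. PRG2 ran from 3.75 through a median of 5.88 to 6.59 in the 18 spleens, and from 0.42 through 1.25 to 4.11 in the 18 day 23 nodes. EPX ran from the floor through a median of 1.13 to 2.40 in spleens, was above the floor in 15 of 18, and was at the floor in all 18 day 23 nodes. No spleen overlapped with a tumor for PRG2, and all but 1 of the 18 day 23 nodes lay below all 18 spleens. Only the day 23 node of PD1 30, at 4.11, reached into the spleens' range. In limma's test with Benjamini-Hochberg adjustment over 12761 genes, PRG2 was 4.02 ± 0.23 (log2 difference ± SE) higher in spleens than in day 23 nodes (adjusted p = 2.81e-22). EPX was 1.12 ± 0.14 higher, given without a p-value because all 18 nodes were at the floor and the gene was tested only through the spleens. Other granulocyte genes were also higher in spleens, where 1161 of 12761 tested genes were. These were 6 of 7 precursor markers, with a median of 3.11, and 3 of 4 mature neutrophil markers, with 1 lower and a median of 2.85. The part of those cells in the PRG2 difference was not tested.

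The other eosinophil genes did not share 1 pattern. CCR3, the eotaxin receptor, was at 3.50 to 5.36 in spleens and at the floor in all tumors and all day 23 nodes, a difference of 4.57 ± 0.09 between spleen and node against nodes that did not vary. PRG3, a close relative of PRG2, and the interleukin 5 receptor chain IL5RA were instead 0.49 ± 0.14 and 0.38 ± 0.12 lower in spleens than in nodes (adjusted p = 0.00126 and 0.00374). The median of all tested genes was 0.92 lower on this scale, a larger fall than that of either gene. CEBPE and ALOX15, also of the eosinophil list, were 0.82 ± 0.17 and 0.29 ± 0.12 higher in spleens (adjusted p = 1.11e-05 and 0.0265). In all, 3 of the 5 tested genes of the list were higher and 2 lower, with a median of 0.29. Over all 12761 tested genes, 1161 were higher and 10169 lower. All 5 listed genes of the 10 in the eosinophil list were lower in tumors than in spleens, where 3157 of 12761 tested genes were. The summed level of that list in tumors was 0 to 0.591 TPM, with PRG3, CCR3 and IL5RA at the floor in all 18. IL5 itself was at the floor in all 72 libraries. The eosinophil markers EAR1, EAR2 and SIGLECF were on that list but were not found in the deposited table under these names, so the sum does not include them.

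The mast cell tryptase had the opposite distribution, high in tumors and near the floor in spleens. TPSAB1 ran from 2.80 through a median of 5.24 to 7.73 in tumors, from the floor through 1.00 to 2.68 in day 23 nodes, and was above the floor in 5 of 18 spleens, where the highest was 1.21. No tumor overlapped with a node or spleen of day 23. The difference was 4.03 ± 0.31 between tumor and node (adjusted p = 2.91e-17) and 4.86 ± 0.31 between tumor and spleen (adjusted p = 2.32e-20). Its paralog TPSB2 was 1.11 ± 0.31 higher in tumors than in nodes (adjusted p = 0.00109).

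CPA3 did not follow the tryptase across tissues. Its levels ran from 0.59 through a median of 3.57 to 6.10 in tumors, from 1.74 through 2.68 to 4.11 in day 23 nodes and from 0.46 through 2.05 to 2.62 in spleens, so all 3 ranges overlapped. The tumor level was 1.27 ± 0.31 above that of spleens (adjusted p = 0.000301), while 0.50 ± 0.31 between tumor and node did not pass (adjusted p = 0.138) except with the mouse as a block, where it was 0.61 with an adjusted p of 0.0382. TPSAB1 lay above CPA3 in 18 of 18 tumors, by 0.95 to 2.70, and below it in 18 of 18 spleens and 18 of 18 day 23 nodes, on the log2(TPM + 1) scale, which is per transcript length. Among the 18 day 16 nodes, TPSAB1 lay above CPA3 in 2, the node PD1/CYTO 22 that stands apart and the node PD1/CYTO 23. TPSB2 crossed over in the same way, below TPSAB1 in 18 of 18 tumors and above it in 18 of 18 day 23 nodes. How similar reads were divided between the 2 tryptase genes was not tested.

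The subunits of the IgE receptor were sparse. FCER1A was above the floor in 13 of 18 tumors, with a median of 1.14 and a highest value of 3.70, in 16 of 18 spleens, with a median of 0.90 and a highest value of 1.39, and in none of the 18 day 23 nodes. MS4A2, the beta subunit, was above the floor in 12 spleens, up to 1.08, in 3 tumors and in no day 23 node. Both subunits were above the floor together in 12 spleens and 3 tumors. In spleens FCER1A minus MS4A2 was between -0.24 and 1.05. In tumors FCER1A exceeded MS4A2 in all 13 where it was detected. FCER1A was 1.18 ± 0.22 higher in tumors than in nodes, given without a p-value because all nodes were at the floor, and the 0.43 ± 0.22 between tumor and spleen did not pass (adjusted p = 0.073) except with the mouse as a block (adjusted p = 0.0114). FCER1G, the gamma chain that many myeloid cells also carry, was at 6.03 to 8.19 in tumors.

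HDC and KIT ordered the tissues differently from the proteases. HDC had medians of 2.39 in spleens, 1.88 in tumors and 0.92 in day 23 nodes, and was 1.14 ± 0.25 higher in spleens than in nodes (adjusted p = 4.57e-05) and 0.70 ± 0.25 lower in tumors than in spleens (adjusted p = 0.0108). The last call was lost with RNA integrity as a covariate, where the adjusted p was 0.0573. Its 0.45 ± 0.25 between tumor and node did not pass (adjusted p = 0.094). KIT was highest in nodes, from 3.32 through 4.14 to 4.78 at day 23, then 1.90 through 2.67 to 3.37 in spleens and the floor through 1.12 to 2.28 in tumors. Nodes and tumors did not overlap for KIT, with a difference of -3.04 ± 0.14 (adjusted p = 2.59e-26). Its ligand, listed as KITLG, had medians of 3.15 in day 23 nodes and 3.84 in tumors.

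**Figure D1:**
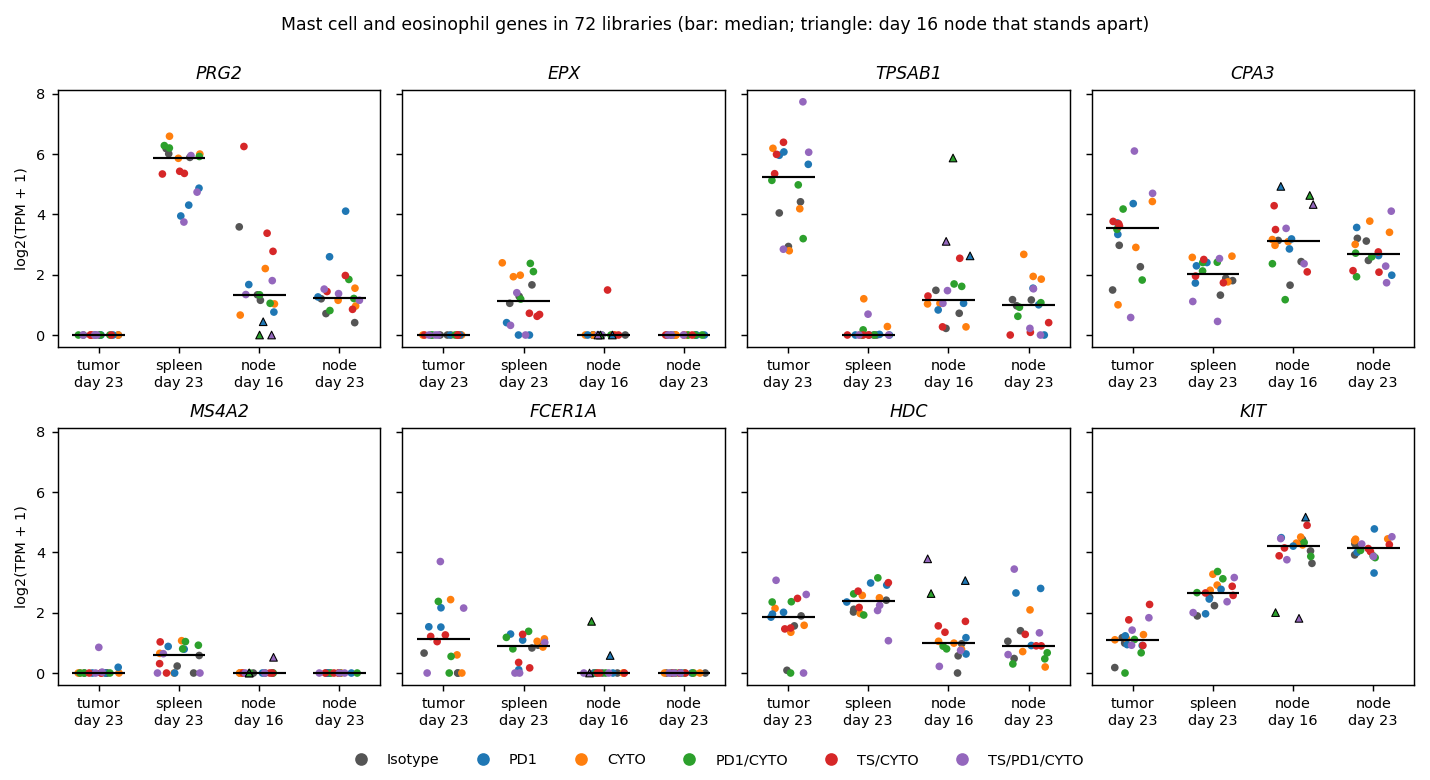
Levels of the 8 genes as log2(TPM + 1) on the vertical axis in each of 72 libraries, by tissue and day on the horizontal axis, with the arm in colour, the median as a bar and the 3 day 16 nodes that stand apart as triangles. PRG2 and EPX are at 0.01 in all 18 tumors, and TPSAB1 runs from 2.80 to 7.73 there.

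These counts have to be read against how many genes of any kind differ between tissues. All 8 members passed between spleen and node, where 88.8% of tested genes did, 4 between tumor and node, where 85.6% did, and 7 between tumor and spleen, where 78% did, so the counts by themselves say little about these genes. They also include EPX, MS4A2 and FCER1A, which were at the floor in every day 23 node and entered the test only through other tissues. The direction varied with the scaling for CPA3, which was 0.77 ± 0.31 lower in spleens than in nodes (adjusted p = 0.0207) but 0.40 higher after quantile normalization (adjusted p = 0.154). TPSAB1 was 0.82 ± 0.31 lower in spleens than in nodes (adjusted p = 0.012), a call lost under quantile normalization, where the difference was -0.19. The median gene was 0.92 lower in spleens than in nodes on the deposited scale and 0.07 lower after quantile normalization. Higher and lower calls numbered 1161 and 10169 between spleen and node (4322 and 5825 after quantile normalization), 3532 and 7388 between tumor and node (5426 and 5496), and 6798 and 3157 between tumor and spleen (5329 and 4823). Tissue also coincides with sequencing batch, since all nodes were in batch 2 and all spleens in batch 4, so the tissue and the batch cannot be told apart between these.

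Other genes of the mast cell pathway also differed between tumors and nodes. The interleukin 33 receptor IL1RL1, found on mast cells among others, was at 5.87 to 7.56 in tumors and 0.50 to 1.72 in day 23 nodes, a difference of 5.71 ± 0.14 (adjusted p = 7.89e-39), while its ligand IL33 was 2.68 ± 0.17 lower in tumors (adjusted p = 4.24e-20). GATA2, a transcription factor of mast cell and progenitor development, was 2.05 ± 0.15 higher in tumors (adjusted p = 9.17e-18), and GATA1, which acts in erythroid, eosinophil and mast cells, was at the floor in all tumors and at 5.04 to 6.70 in spleens. The granule-loading transporter SLC18A2 was 0.51 ± 0.06 higher in tumors than in nodes (adjusted p = 3.2e-10). The lists of these genes did not rise as a whole. Of 6 tested genes in the list of proteases and granule loading, 2 were higher in tumors and 2, SRGN and NDST2, lower. Of 9 receptors 1 was higher and 7 lower, and of 7 transcription factors 2 were higher and 4 lower. CCL11, an eotaxin, was at the floor in all spleens and at 0.95 to 3.98 in tumors. Its mean was 2.14 ± 0.21 above spleens in tumors and 4.26 ± 0.21 above spleens in nodes, so tumors lay below nodes. CCL24, another eotaxin, was at 2.85 to 5.21 in spleens. Of 5 tested ligands, 1 was higher and 4 lower in tumors than in nodes. Of the IgE receptor signaling list, 10 of 12 tested genes were lower in tumors than in nodes and 1 higher, and LAT, an adaptor that T cells also use, had the smallest p, with -6.32 ± 0.20. Over all 12761 genes 7388 were lower, and lymphocyte markers were lower as well, all 4 T cell markers with a median of -4.57 and all 4 B cell markers with a median of -7.96. BTK, SYK and PLCG2 of the signaling list are also lymphocyte genes, and the part of lymphocyte content in the list's difference was not tested.

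Across the 18 tumors, the mast cell genes were lower where the tumor was larger. CPA3 ran from 6.10 in the smallest tumor, of 181 mm3, to 0.59 in the largest, of 2198 mm3, and its slope per doubling of volume was -1.16 ± 0.18 on the log2(TPM + 1) scale. The slopes were -0.98 ± 0.23 for TPSAB1, -0.94 ± 0.13 for FCER1A and -0.63 ± 0.12 for HDC. FCER1A was at the floor in 5 tumors, all of 1320 mm3 or more, and HDC was at the floor in 2. KIT had -0.14 ± 0.12 and MS4A2, above the floor in 3 tumors, -0.12 ± 0.05. PRG2 and EPX, at the floor in all tumors, were not tested. The 4 genes with the steepest slopes were past 5% of the 6 tested and all 4 fell, where 10.7% of all tested genes fell, and nothing is read from that count because TPSAB1 was noted in this comparison before.

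The values show how the largest tumors spread. Among the larger tumors, CPA3 was 3.72 in the 1616 mm3 tumor of PD1 30 but 1.01 in the 1417 mm3 tumor of CYTO 18. In the same 2 tumors TPSAB1 was 5.96 and 2.80, and FCER1A 1.53 and the floor. The 3 TS/CYTO tumors, of 1097 to 1178 mm3, lay close together for CPA3 at 3.69, 3.62 and 3.77. Tumors that were high in one protease were thus high in the other. Pearson's r over the 18 tumors, given as a description of points that share libraries and scaling, was 0.95 for TPSAB1 and CPA3, 0.98 for CPA3 and TPSB2, 0.92 for CPA3 and FCER1A, 0.81 for CPA3 and HDC and 0.46 for CPA3 and KIT.

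**Figure D2:**
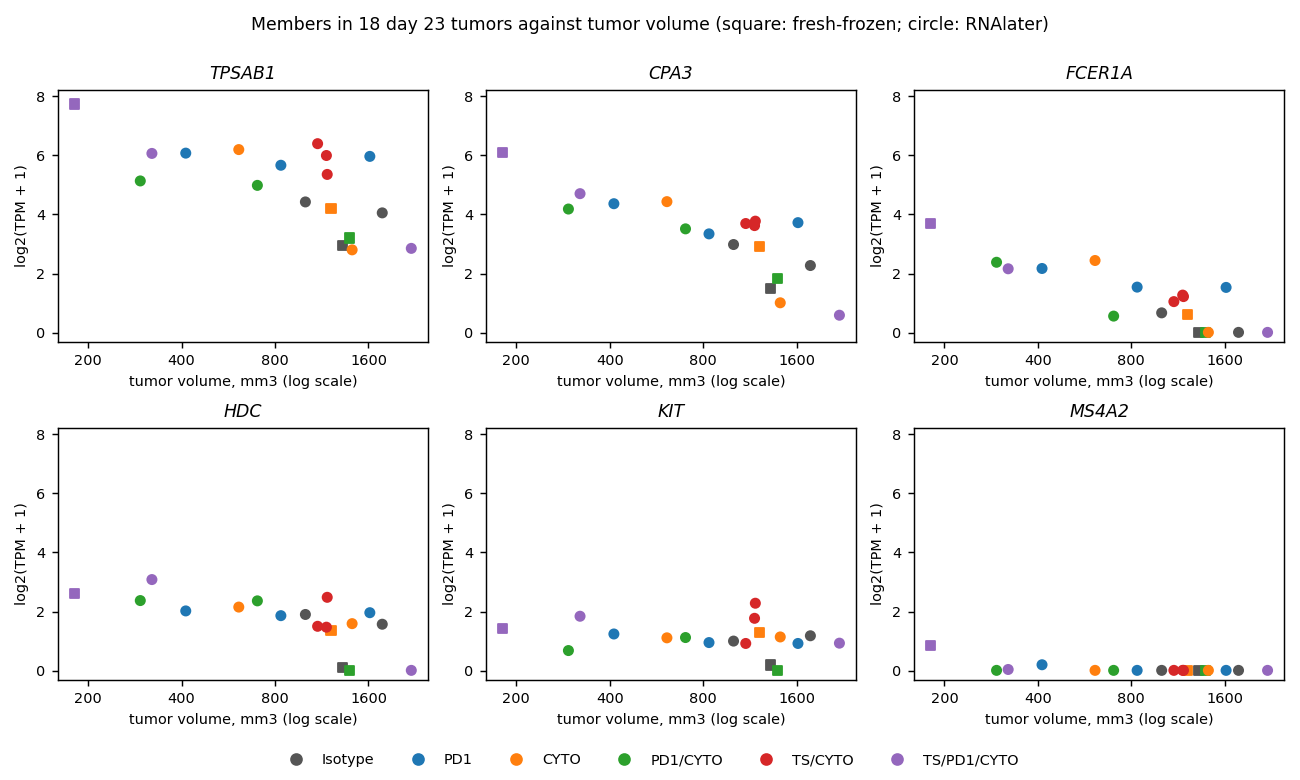
Levels as log2(TPM + 1) on the vertical axis against tumor volume in mm3 on a log axis for the 6 members above the floor in any of the 18 tumors, with arms in colour, fresh-frozen tumors as squares and RNAlater tumors as circles. CPA3 falls from 6.10 at 181 mm3 to 0.59 at 2198 mm3, while KIT stays between 0.01 and 2.28.

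The smallest tumor, TS/PD1/CYTO 52, had the highest TPSAB1, CPA3, FCER1A and MS4A2 of all tumors. It is 1 of 4 fresh-frozen tumors of batch 2, where the other 14 were kept in RNAlater and sequenced in batch 3, and its keratinocyte markers summed to 77.3 TPM against at most 18.4 TPM in any other tumor. The part of skin RNA in its mast cell levels was not tested. Without it the slope of TPSAB1 was -0.68 and the count of 4 became 3, since TPSAB1 was no longer past 5%. Among the 14 RNAlater tumors, the slopes were -0.77 ± 0.15 for FCER1A, -0.55 ± 0.14 for HDC and -0.67 ± 0.28 for TPSAB1, and the count was again 3. The median slope of all tested genes was -0.12 on the deposited scale and 0.00 after quantile normalization, under which CPA3 had -0.99, TPSAB1 -0.85, FCER1A -0.86, HDC -0.52 and KIT 0.03, a reversed sign. Over all tested genes, 30 rose and 1166 fell with volume on the deposited scale, against 262 and 535 after quantile normalization.

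Proteases that are not among the 8 genes followed the same course. The chymase CMA1 fell by 1.18 ± 0.19 per doubling of volume (adjusted p = 0.00147 in limma). TPSB2 fell by 1.03 ± 0.20, given without a p-value because reads could be split between it and TPSAB1. CTSC, which activates granule proteases, fell by 0.74 ± 0.14 (adjusted p = 0.00256) and SRGN, the granule proteoglycan core, by 0.42 ± 0.08 (adjusted p = 0.00382). In all, 4 of 6 tested genes of the protease list fell and none rose, with a median slope of -0.58, where 10.7% of all tested genes fell and their median slope was -0.12. Over the same 18 tumors TPSB2 and CMA1 had Pearson's r of 0.97 and 0.90 with TPSAB1, which was noted in this comparison before. Their slopes and this count are therefore not separate from that earlier result, and nothing is read from the count. CTSC and SRGN are also made by lymphoid and myeloid cells.

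Genes that signal from the IgE receptor fell as well, but so did markers of other leukocytes. Of 11 tested signaling genes 9 fell and none rose, with a median slope of -0.46 against -0.12 for all tested genes. For each count of this paragraph, the share of all tested genes that fell was 10.7%. These were 1166 genes, against 30 that rose, and after quantile normalization 535 fell and 262 rose. The smallest p-values were those of FCER1G, at -0.39 ± 0.07, and of the adaptor LAT2, at -0.57 ± 0.10 (adjusted p = 0.00216 and 0.00222), and the steepest slope was that of LAT, at -0.64 ± 0.13 (adjusted p = 0.00452). All 4 macrophage markers fell, C1QA by 0.49 ± 0.07 (adjusted p = 0.00109), and 3 of 4 T cell markers fell, CD3G by 0.66 ± 0.16 (adjusted p = 0.0112). All 5 fibroblast slopes were negative, with a median of -0.50, and LUM passed (adjusted p = 0.012), and all 4 skeletal muscle slopes were negative, with a median of -0.77, and TNNT3 passed (adjusted p = 0.038). In the lipid mediator list, ALOX5AP and the prostaglandin D synthase HPGDS fell by 0.36 ± 0.07 and 0.34 ± 0.08 (adjusted p = 0.00317 and 0.00707), 2 of 7 tested. Of 4 transcription factors tested, only CEBPA passed, with -0.49 ± 0.11 (adjusted p = 0.0091), and GATA2 had -0.14 ± 0.10 (adjusted p = 0.313). Of 4 ligands, none passed at 5% in limma and none had an unadjusted p under 0.05, where 3855 of 10913 genes did. The part of changing leukocyte, fibroblast or muscle content in the slopes of the members was not tested.

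Outside the tumor no member passed a test on tumor volume. In spleens 0 of 8 members passed although 39.7% of all tested genes did. An unadjusted p under 0.05 was found for 0 of the 8 and for 6308 of all 11184 tested genes. All 8 slopes were negative, led by CPA3 at -0.17 ± 0.08 (adjusted p = 0.094). Of all genes, 510 rose and 3932 fell there, against 1136 and 967 after quantile normalization and 0 and 0 after rescaling of the listed TPM. Leaving out the spleen TS/PD1/CYTO 60 let CPA3 and FCER1A pass, where 55.6% of genes then did, and leaving out PD1/CYTO 40 let KIT pass, where 65.9% did. In day 23 nodes 0 of 5 tested passed, where 0% of tested genes did, and HDC had 0.31 ± 0.12 (adjusted p = 0.99). There 1 member had an unadjusted p under 0.05, as did 352 of all 12203 tested genes. In day 16 nodes 0 of 5 passed, where 0% of tested genes did, and none had an unadjusted p under 0.05, where 621 of 12480 genes did. Without the 3 nodes that stand apart KIT passed there, where 7.47% of tested genes then did, with a slope of 0.37 ± 0.09 (adjusted p = 0.0365) in place of -0.14 ± 0.29, and TPSAB1 had 0.28 ± 0.24 in place of 0.83 ± 0.42. The difference between the tumor slopes and those of other tissues was not tested.

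**Figure D3:**
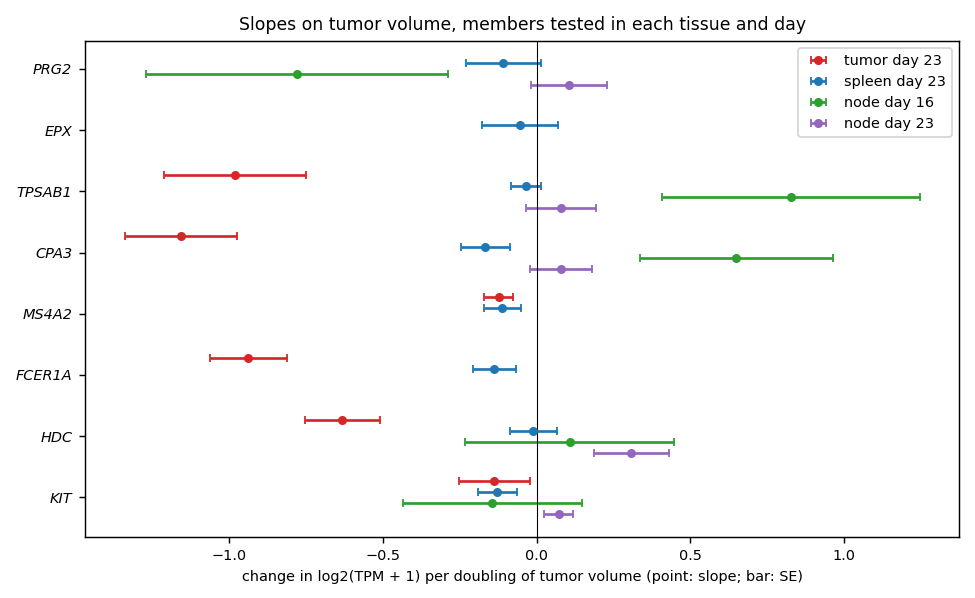
Slopes of log2(TPM + 1) per doubling of tumor volume on the horizontal axis (points, with SE as bars) for the members tested in each tissue and day. In tumors CPA3, TPSAB1, FCER1A and HDC lie between -1.16 and -0.63, and the 8 spleen slopes lie between -0.17 and -0.01.

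Treatment left no member past the threshold in tumors. For PD1, CYTO and TS in turn 0 of 6 tested members passed in limma, with 0% of all tested genes in each. At an unadjusted p under 0.05 there were 0, 0 and 1 members, and 522, 98 and 369 of all 10913 tested genes. TPSAB1 was 4.42, 2.94 and 4.05 in the 3 Isotype tumors and 6.07, 5.66 and 5.96 in the 3 PD1 tumors. These groups did not overlap, but how many other genes separated in this way was not counted. The difference between these arms was 2.08 ± 1.03 and did not pass (adjusted p = 0.532 in limma). The smallest of these tumors was in PD1 and the largest in Isotype, and 1 of the 3 Isotype tumors was fresh-frozen. Over the 3 matched pairs of arms, however, the PD1 effect was 0.59 ± 0.58 (adjusted p = 0.681). The TS effect on TPSAB1 was 1.31 ± 0.72 and on KIT 0.57 ± 0.25 (adjusted p = 0.999 for both). FCER1A was above the floor in 1 of 3 Isotype tumors and in 3 of 3 PD1 tumors, where it was 1.75 ± 0.37, and its PD1 effect was 0.75 ± 0.46 (adjusted p = 0.666). The spread within TS/PD1/CYTO was wide, with TPSAB1 at 7.73, 6.06 and 2.85 in tumors of 181, 321 and 2198 mm3.

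In spleens PRG2 and EPX lay apart in several arms, while other eosinophil genes did not follow them in every comparison. PRG2 was 6.18, 6.01 and 5.89 in Isotype, 4.87, 4.31 and 3.95 in PD1, 6.59, 5.86 and 6.00 in CYTO and 6.20, 6.28 and 5.92 in PD1/CYTO. The 3 PD1 spleens lay below all 9 spleens of those other arms. Of the granulocyte precursor markers 0 of 7 passed for PD1, but all 7 effects were negative, with a median of -0.53 against 0.15 for all tested genes, and their part in the PRG2 levels was not tested. With TS, PRG2 was 5.43, 5.34 and 5.36 in TS/CYTO, below all 3 CYTO spleens, and 5.95, 3.75 and 4.74 in TS/PD1/CYTO. The effects were -0.74 ± 0.22 for PD1 and -1.05 ± 0.28 for TS, which are the values for which PRG2 was noted before. The separations of PRG2 between these arms come from the same values, so nothing is read from them. How many other genes separated in this way was not counted. The PD1 effect was -0.15 ± 0.26 for PRG3, -0.02 ± 0.20 for CCR3 and 0.03 ± 0.21 for IL5RA (adjusted p = 0.775, 0.953 and 0.939), and CCR3 was 4.67 ± 0.36 in PD1 and 4.51 ± 0.32 in Isotype (SD, n = 3). CEBPE had -0.47 ± 0.28 and ALOX15 -0.19 ± 0.18 (adjusted p = 0.547 and 0.615). Of the 5 tested genes of the eosinophil list 4 had negative PD1 effects, with a median of -0.15 against 0.15 for all tested genes.

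EPX was arranged alike. It was 1.67, 1.06 and 1.29 in Isotype, 0.42, the floor and the floor in PD1, 2.40, 1.94 and 1.99 in CYTO, 2.11, 2.38 and 1.2 in PD1/CYTO, 0.69, 0.73 and 0.63 in TS/CYTO, and 1.41, the floor and 0.33 in TS/PD1/CYTO. The PD1 spleens lay below all Isotype spleens, and the TS/CYTO spleens below all CYTO spleens. These are the comparisons with which the genes were chosen, and nothing is read from the separations. The effects were -0.50 ± 0.20 for PD1 and -1.37 ± 0.24 for TS. For the CYTO effect, not one of those used to choose the genes, EPX had 1.26 ± 0.24, PRG2 0.94 ± 0.28 and KIT 0.71 ± 0.21, each with an adjusted p of 0.219. The lipoxygenase ALOX15, which eosinophils and macrophages make, had 1.11 ± 0.22 for CYTO (adjusted p = 0.219) and -0.74 ± 0.22 for TS (adjusted p = 0.604). For CYTO the other eosinophil genes had 0.44 ± 0.25 for IL5RA, 0.41 ± 0.32 for PRG3 and 0.19 ± 0.24 for CCR3 (adjusted p = 0.258, 0.373 and 0.569).

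The mast cell genes of the spleen overlapped between most arms. KIT was 2.22 ± 0.31 in Isotype, 2.98 ± 0.27 in CYTO and 3.06 ± 0.36 in PD1/CYTO (mean ± SD, n = 3 each), and 2.40 ± 0.41, 2.71 ± 0.16 and 2.52 ± 0.59 in PD1, TS/CYTO and TS/PD1/CYTO. CPA3 was between 1.37 ± 1.06 in TS/PD1/CYTO and 2.32 ± 0.48 in CYTO, and HDC between 1.80 ± 0.63 in TS/PD1/CYTO and 2.76 ± 0.35 in PD1. FCER1A was above the floor in all 3 spleens of every arm except TS/PD1/CYTO, where it was in 1, and MS4A2 was in all 3 only in PD1/CYTO, at 0.93 ± 0.12. PRG2 and EPX had a Pearson r of 0.91 with each other over the 18 spleens, and CPA3 one of 0.84 with FCER1A and 0.45 with PRG2, given as a description of points that share libraries.

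In the spleen 0 of 8 members passed for PD1, CYTO or TS, with 0% of all tested genes in each. For CYTO 3 had an unadjusted p under 0.05, as did 2488 of all 11184 tested genes. All 8 had a negative TS effect, with a median of -0.51 against -0.17 for all tested genes, and 7 of 8 a positive CYTO effect, with a median of 0.38 against 0.25. The TS effects of all 4 T cell, all 4 B cell and all 4 macrophage markers were negative as well, with medians of -0.495, -0.547 and -0.438. Those of all 7 erythroid markers were positive, with a median of 0.23. The median of all genes was within 0.02 of 0 in the PD1, CYTO and TS effects after quantile normalization. Leaving out 1 spleen changed these counts. Without TS/PD1/CYTO 58, in which PRG2 was 5.95, 5 members passed for TS (CPA3, EPX, FCER1A, KIT and PRG2), where 25% of all tested genes then did, and EPX and PRG2 passed for CYTO, where 0.539% did. Without PD1/CYTO 40, EPX alone passed for CYTO, where 0.331% of genes did. Nothing is read from the counts for PD1 and TS, for which PRG2 was noted before.

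**Figure D4:**
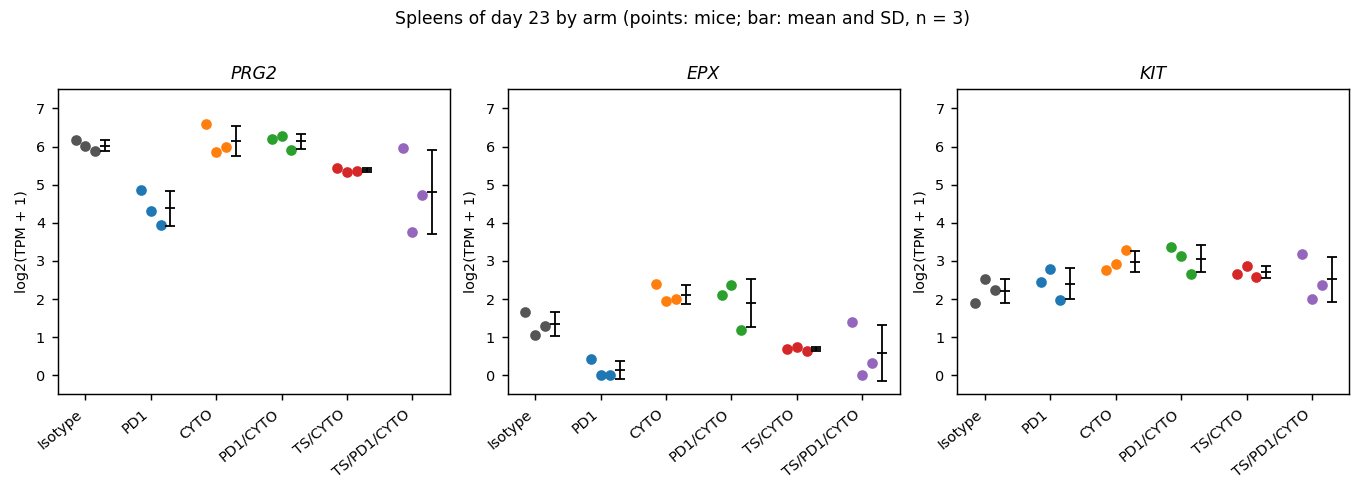
Levels of PRG2, EPX and KIT as log2(TPM + 1) on the vertical axis in the 18 spleens by arm, with points for mice and bars for the mean and SD (n = 3). PRG2 is at 3.95 to 4.87 in PD1 and at 5.89 to 6.18 in Isotype, and EPX at 0.63 to 0.73 in TS/CYTO and at 1.94 to 2.40 in CYTO. The genes were chosen with the PD1 and TS comparisons of PRG2 known, and nothing is read from these separations.

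The spleens also differed in what else they held. TS/PD1/CYTO 59, from the mouse with the largest tumor, had the lowest PRG2, CPA3 and HDC of all spleens (3.75, 0.46 and 1.08), the highest erythroid marker sum (4270 TPM against a median of 2380 TPM) and the largest share of TPM in genes not listed, 59.1%. TS/PD1/CYTO 58 had the smallest such share, 40.4%. Exocrine pancreas markers summed to between 0 and 5930 TPM. The part of these in the members' levels was not tested.

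Effects in the spleen were also set against those in day 23 nodes of the same mice. For CYTO 0 of 8 members passed, where 0.00803% of tested genes did, and 3 had an unadjusted p under 0.05, as did 924 of 12454 genes. For PD1 0 of 8 passed, where 0% did, and for TS 1 of 8, EPX at -1.37 ± 0.25, where 0.0241% did. Nothing is read from these last counts: they use the spleens in which PRG2 was noted before, and EPX was at the floor in all 18 nodes, so its value is the TS effect in the spleen and no test of a difference between tissues.

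CPA3 and KIT were above the floor in all 36 nodes, PRG2 in 16 of 18 at day 16 and 18 of 18 at day 23, and TPSAB1 in 18 and 15. At day 23, CPA3 ran from 1.74 to 4.11 and TPSAB1 was 2.68, 1.86 and 1.95 in CYTO, 0.01, 0.42 and 0.10 in TS/CYTO and 1.18, 0.98 and 1.17 in Isotype. The 3 CYTO nodes lay above and the 3 TS/CYTO nodes below all 3 Isotype nodes, but how many other genes separated so was not counted. The TS effect on TPSAB1 was -1.14 ± 0.28 (adjusted p = 0.345). For PD1, CYTO and TS at day 23, 0 of 5 tested members passed, where 0.0164%, 0.0656% and 0.00819% of tested genes did. At an unadjusted p under 0.05 there were 0, 0 and 1 members, and 2207, 2533 and 1151 of all 12203 tested genes.

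KIT hardly varied in day 23 nodes, with arm means from 3.93 ± 0.12 in PD1/CYTO to 4.43 ± 0.03 in CYTO (SD, n = 3). At day 16 it was lowest in 2 of the nodes that stand apart, 1.82 in TS/PD1/CYTO 34 and 2.01 in PD1/CYTO 22, and highest in the third, 5.17 in PD1 16, while the other 15 lay between 3.64 and 4.90.

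PRG2 was high in single nodes, several of which also held many neutrophil transcripts. At day 16 it was 6.25, 2.78 and 3.38 in TS/CYTO and 3.59, 1.16 and 1.34 in Isotype. The node with 6.25, TS/CYTO 28, was the only node with EPX above the floor (1.5), and its mature neutrophil markers summed to 1710 TPM against a median of 45.6 TPM. At day 23 the highest were PD1 30 at 4.11 and PD1 28 at 2.60, and their neutrophil sums, 2630 and 3630 TPM, were the highest of the 18. HDC was also high in both, at 2.81 and 2.66. The part of neutrophil or precursor RNA in these levels was not tested.

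The PD1 effect on PRG2 at day 16 was -1.55 ± 0.50 (adjusted p = 0.508) and the TS effect 1.54 ± 0.61 (adjusted p = 1). For PD1, CYTO and TS at day 16, 0 of 5 members passed, with 0% of tested genes each. At an unadjusted p under 0.05 there were 1, 0 and 1 members, and 905, 82 and 139 of all 12480 tested genes. Without the 3 nodes that stand apart, 0 members passed as well, and the effects on PRG2 were -1.16 and 1.61. The PD1 effect on PRG2 at day 23 minus that at day 16 was 2.17 ± 0.60 (adjusted p = 0.886), and 1.78 (adjusted p = 0.411) without the 3 nodes that stand apart. For the differences of effects between days, 0 of 5 members passed for PD1, CYTO or TS, where 0.0556%, 0% and 0% of tested genes did. At an unadjusted p under 0.05 there were 2, 0 and 0 members, and 193, 266 and 217 of all 12596 tested genes. Without those 3 nodes 0 members passed again, while 7, 2 and 5 of 12433 genes did.

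Day itself gave no call among the members. Between day 23 and day 16 nodes, 0 of 5 tested members passed, where 0% of tested genes did. None had an unadjusted p under 0.05, where 2227 of 12596 genes did. TPSAB1 had -0.61 ± 0.32 (adjusted p = 0.302). Its median at day 16 was 1.18 in all 18 nodes and 1.06 without the 3 that stand apart, against 1.00 at day 23, and 0 members passed without them as well, although 14 of 12433 genes then rose and 241 fell. Those 3 nodes had the highest CPA3 of all day 16 nodes, at 4.93, 4.63 and 4.33, and the highest TPSAB1, at 2.63, 5.87 and 3.11, and HDC, at 3.07, 2.64 and 3.79, for PD1 16, PD1/CYTO 22 and TS/PD1/CYTO 34 in turn. Their adipocyte sums were 18700, 23.2 and 10700 TPM, the highest, the lowest and the second highest of day 16. Next came the node TS/CYTO 29, with CPA3 at 4.29 and TPSAB1 at 2.55, whose adipocyte sum of 5390 TPM was the third highest. At day 23 the highest CPA3, 4.11 in TS/PD1/CYTO 60, went with the second highest adipocyte sum, 2730 TPM. The part of surrounding fat tissue in the mast cell levels of nodes was not tested.

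**Figure D5:**
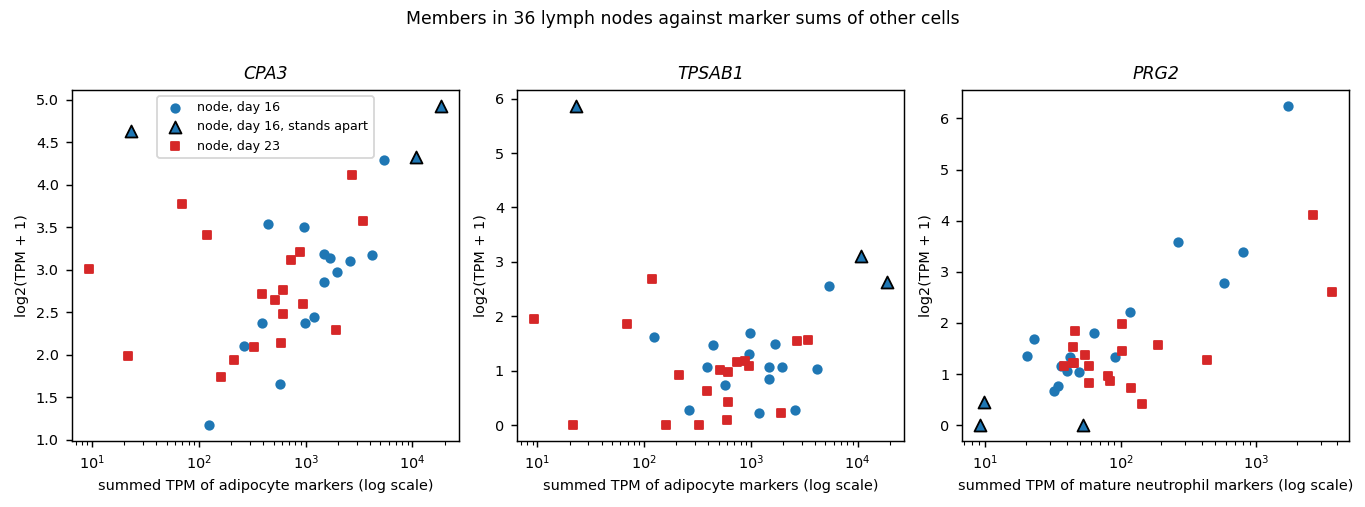
Levels of CPA3, TPSAB1 and PRG2 as log2(TPM + 1) on the vertical axis in 36 nodes against the summed TPM of adipocyte or mature neutrophil markers on a log axis, with day 16 as circles, day 23 as squares and the 3 nodes that stand apart as triangles. The nodes PD1 16 and TS/PD1/CYTO 34 hold the highest adipocyte sums and have CPA3 at 4.93 and 4.33, the node PD1/CYTO 22 holds one of the lowest and has CPA3 at 4.63, and the node with PRG2 at 6.25 has a neutrophil sum of 1710 TPM.

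The genes whose levels varied most alike over the 72 libraries, after subtracting the mean of each tissue and day, set the members apart from each other. CPA3 was closest to CMA1, TPSB2 and C1RL (Pearson's r of 0.96, 0.95 and 0.80 among 11238 genes above the floor in at least 36 libraries), and TPSAB1 to TPSB2, CPA3 and CMA1 (0.84, 0.79 and 0.76). FCER1A was closest to CPA3, CMA1 and GBP3 (0.75, 0.75 and 0.69). PRG2 was closest to S100A8, S100A9 and CTSG (0.68, 0.68 and 0.56), which are neutrophil and precursor granule genes, and EPX to PRG2, SLC35D3 and WDR11 (0.59, 0.46 and 0.41). HDC was closest to C5AR1, EMILIN2 and HACD4 (0.80, 0.77 and 0.75), KIT to SFN, NIT1 and STAP2 (0.83, 0.82 and 0.81) and MS4A2 to KCNK13, HSD17B11 and PLA2G15 (0.61, 0.61 and 0.57). Without the 3 nodes that stand apart, the first genes were still CMA1 for CPA3 and TPSB2 for TPSAB1, but PALLD for KIT, CXCL13 for FCER1A and GGCT for MS4A2. These values share libraries and scaling and are given as a description.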

How the data were processed

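Per the labels, RNA was sequenced as paired-end stranded polyadenylated libraries. Per the submitters' processing notes, bcl2fastq 2.20, STAR and RSEM 1.3.0 were used with mm10; the annotation release is not given in the sources used here. The authors deposited log2(TPM + 1) values to 2 decimals, 1 column per library, and all 72 columns were matched to labels (0 unmatched, 0 identical pairs). TPM keeps no read number, so precision rests on the spread between mice.

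Differences were tested in R 4.3.3 with limma 3.58.1 (trend and robust empirical Bayes), on genes above the floor in at least 3 fitted libraries, with Benjamini-Hochberg adjustment over all tested genes at 5%; the fit was tested on simulated data. The PD1 effect averages 3 matched arm differences, CYTO and TS 2 each, and batch was a term in tumors. Fold changes understate those of genes near the floor. Tissues were compared over 54 day 23 libraries with arm as a term. Day 23 spleens and nodes came from the same 18 mice, 14 of which gave a tumor, by the labels' mouse numbers. Residuals of the same mouse correlated at a median of -0.01 between spleen and node, 0.03 between tumor and node and 0.08 between tumor and spleen.

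Alternatives were quantile normalization, rescaling of the listed TPM, a pseudocount of 0.1, no filter, a stricter filter, RNA integrity (dropping 1 node without a value), tumor volume or arm as a term, no batch term, RNAlater tumors, a mouse block and leaving out each library. Leaving out the 3 nodes that stand apart was chosen after seeing the data. The members and the 24 lists were chosen with earlier results of these data known. The text names all members and the 3 genes most alike to each member. From the lists it was meant to name at most 4 genes by smallest p in a comparison. This was not kept throughout. All 5 tested eosinophil genes were named in the spleen, and between tumor and node some genes were named ahead of others with a smaller p. List genes whose levels are given without a test (KITLG, IL5, CCL24, GATA1, FCER1G in places) were named after their values were seen. Figures used Python 3.11.15 and matplotlib 3.10.9.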

Additional observations from a re-analysis of the deposited data

Results flagged for a closer look

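The TS effect on EPX in spleens minus that in day 23 nodes was -1.37 ± 0.25 (limma, 18 mice), and it is listed because it passed the fit's threshold. EPX was at the floor in all 18 nodes, so the value is the spleen effect alone, one of the comparisons with which the genes were chosen, and shows no difference between tissues. In spleens the 3 TS/CYTO values lay below the 3 CYTO values, and the 3 TS/PD1/CYTO values overlapped the PD1/CYTO values. The call was lost under 5 of the 6 alternatives.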

How the results depend on the processing

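Members past 5% were counted in 26 comparisons under every alternative that could be run, and 17 of these counts were 0 throughout, while 20 stayed within 1.5 times the reported count. For the TS effect in spleen against node, the count went from 1 to 0 under quantile normalization, rescaling of listed TPM, a pseudocount of 0.1, no filter and the mouse as a replicate block. With the block the paired comparison of tissues made 5 members pass between tumor and node and 8 between tumor and spleen, and it changed no other call. For tumor volume in tumors the stricter filter left 1 member to test, which passed. For volume in day 16 nodes, 1 member passed without the 3 nodes that stand apart. Leaving out single libraries gave 0 to 2 members for CYTO in spleens, 0 to 5 for TS in spleens and 0 to 2 for volume in spleens, the last 2 without TS/PD1/CYTO 60 and 1 without PD1/CYTO 40, and 3 to 5 for volume in tumors. Of 42 single values, 2 changed sign, both under quantile normalization: KIT on tumor volume (0.029) and CPA3 between spleen and node (0.40). The causes were not tested, apart from the smaller number of genes under the stricter filter. Without read numbers, levels near the floor cannot be told from counting error, which limits EPX, MS4A2 and FCER1A most.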
